A study of Mus musculus with 6 samples.

Results

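Neurotrophins are secreted growth factors, and 7 genes of their ligand and receptor system were followed here in differentiating mouse myoblasts: Bdnf, Ntf3 and Ntf5, which encode ligands, and Ngfr, Ntrk2, Ntrk3 and Sort1, which encode receptors. They were chosen by name, with earlier results of these data known, so their levels and fold changes are given as a description. Whether a member passed the threshold of the fit over all genes is stated without a p-value, beside the share of all genes that passed, and is not used as evidence. Ntf3 was not analysed here, which leaves 6 genes with values, of 17558 genes in all. The cells were C2C12, an immortalized mouse myoblast line that forms multinucleated myotubes in low serum, and RNA was sequenced from 6 libraries. Each of the 3 groups had 2 libraries. Control cells were stably transfected with a scrambled, non-targeting hairpin (shScr), and the other cells with a short hairpin RNA against 1 splice product of the pyruvate kinase gene Pkm (shPkm1 or shPkm2). Cells of all groups were wild type apart from the hairpin and were taken 48 h after the change to medium with 2% horse serum, insulin, transferrin and selenium. The labels do not say whether a hairpin line was a clone or a pool, or whether the libraries of a group came from separate cultures, so p-values measure only the spread between these libraries. The comparisons with shScr share their control libraries.

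Neurotrophins are made as precursors. The mature forms bind Trk receptor tyrosine kinases, BDNF and neurotrophin-4 (Ntf5) through TrkB (Ntrk2) and neurotrophin-3 through TrkC (Ntrk3). The precursors bind a complex of the p75 receptor (Ngfr), a member of the tumour necrosis factor receptor family with a death domain, and sortilin (Sort1), a sorting receptor that also moves cargo between the Golgi and endosomes. In skeletal muscle BDNF is known as a product of myogenic cells, and sortilin is known from the vesicles that carry the insulin-responsive glucose transporter.

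Library totals ran from 18216896 to 19796036 estimated counts. Pkm was lower in shPkm1 than in shScr by 0.63 on the log2 scale (adjusted p = 0.00107 in edgeR's quasi-likelihood test with Benjamini-Hochberg adjustment) and was not called in shPkm2 (0.20 higher, adjusted p = 0.198). On the TPM scale in limma the first call was lost (-0.24, adjusted p = 0.0933 or 0.0952, by the pseudocount) and Pkm rose in shPkm2 by 0.66 (adjusted p = 0.000131 or 0.000182). In edgeR it also rose in shPkm2 with library totals in place of the composition factor (0.52, adjusted p = 0.00243) and without shScr replicate 2 (0.31, adjusted p = 0.0282). The Pkm1 transcript held 15844 and 16970 counts in shScr, 5854 and 5856 in shPkm1, and 6635 and 6909 in shPkm2. The Pkm2 transcript held 31147 and 43712, then 30825 and 37021, then 70489 and 71460. The hairpin's named target was thus not reduced in the libraries labelled shPkm2, which are called by that label throughout. The summed level of 10 myotube markers was 42391 and 31575 TPM (a level scaled to transcript length and library) in shScr, 13892 and 15053 in shPkm1, and 304 and 316 in shPkm2, and 10 of 10 were lower by the same test in each comparison, shPkm2 against shPkm1 included, where 31.4%, 34.2% and 27.3% of all tested genes were lower. In bulk RNA, fewer cells of a type and less RNA per cell cannot be told apart.

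Among the receptors, p75 was nearly undetected in the control and shPkm1 cells and present in the libraries labelled shPkm2. Ngfr (chr11:95568818-95587698, GRCm38, minus strand) had 5 and 9 counts in shScr, 1 and 6 in shPkm1, and 183 and 158 in shPkm2. Its level was 0.12 and 0.22 TPM in shScr, 0.03 and 0.16 TPM in shPkm1, and 4.95 and 4.11 TPM in shPkm2. Both shPkm2 libraries lay far above the 4 others, and the shScr and shPkm1 libraries overlapped in count and in TPM, though not after scaling by the composition factor. The ratio of count shares was 24.2 for shPkm2 over shScr (exact 95% interval 14.2 to 44.7) and 48.7 for shPkm2 over shPkm1 (23.4 to 122). It was 0.496 for shPkm1 over shScr, with an interval of 0.170 to 1.31 that spans 1. These intervals cover counting error only. The fitted log2 fold change, which also carries the spread between libraries, was 4.25 for shPkm2 against shScr (95% interval 3.49 to 5.02). It was 5.43 for shPkm2 against shPkm1 (4.57 to 6.29), a value that ran from 4.70 without shPkm1 replicate 1 to 7.08 without shPkm1 replicate 2. For shPkm1 against shScr it was -1.17 (-2.61 to 0.26), at counts too low to place it. With 1 library left out it ran from -2.82 without shPkm1 replicate 2, where it passed the threshold, to -0.44 without shPkm1 replicate 1. All counts were assigned to the only transcript listed for the gene, with 6 exons and 427 codons.

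The 213 bases before the start of the GENCODE transcript of Ngfr (chr11:95587736-95587948, minus strand, from RefSeq, GRCm38.p6) are shown because this gene had the widest fold difference of the members tested, and capitals mark an E-box match (CANNTG, the core letters bound by MyoD-family and other helix-loop-helix factors).
Ngfr, bases before the start: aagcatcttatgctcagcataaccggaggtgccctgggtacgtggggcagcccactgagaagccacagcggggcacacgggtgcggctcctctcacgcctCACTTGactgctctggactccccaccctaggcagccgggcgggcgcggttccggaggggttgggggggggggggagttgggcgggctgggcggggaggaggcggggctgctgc
The stretch is 70.9% G and C. It holds 1 E-box match, at position -113 counted from this start. The RefSeq start lies 37 bases further downstream, and a match with the letters CAGCTG at position -25 of that start lies within the first exon of the GENCODE transcript. A search on both strands of all 32851 promoter windows of 300 bases found CANNTG in 72.3% and CAGCTG in 16.3% of them, the second being a case of the first. The letters TGACG, part of the cyclic AMP response element, did not occur in the 300-base window of Ngfr and occurred in 20.8% of all windows.

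TrkB and TrkC were at or near 0, where the floor of 3 counts corresponds to 0.152 to 0.165 CPM (counts scaled to the library total). Ntrk2 (chr13:58806472-59133970) had 1 and 1 counts in shScr, 3 and 0 in shPkm1, and 0 and 0.79 in shPkm2. All of its counts were assigned to a predicted transcript rather than to the listed short form of 476 codons. Ntrk3 (chr7:78179986-78581034) had 1 and 1 counts in shScr, 5 and 3 in shPkm1, and 0 and 0 in shPkm2. Its highest level was 0.11 TPM, and the ratio of count shares of shPkm1 over shScr was 3.97 with an exact 95% interval of 0.792 to 38.4. Most of the shPkm1 counts, 3.84 and 3, were assigned to a transcript of 612 codons, which encodes the form of TrkC without a kinase domain. For shPkm2 over shPkm1, 0 against 8 rounded counts allow a ratio of up to 0.586. No difference in Ntrk2 was detectable at this depth, and both Trk genes failed the filter on low counts. In the libraries labelled shPkm2, Ngfr therefore stood at 4.11 to 4.95 TPM where Ntrk2 and Ntrk3 were listed at 0 TPM.

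Sortilin was lower in both hairpin groups than in the control. Sort1 (chr3:108283974-108361519, plus strand) had 1141 and 1181 counts in shScr, 219 and 237 in shPkm1, and 464 and 455 in shPkm2. In TPM this was 13.68 and 14.2, then 3.14 and 3.06, then 6.15 and 5.81. The groups did not overlap and the order was shScr, shPkm2, shPkm1 in both units. The log2 fold change against shScr was -2.55 in shPkm1 (SE 0.109, 95% interval -2.79 to -2.32), a level 5.88-fold lower. In shPkm2 it was -1.67 (SE 0.102, -1.90 to -1.45), a level 3.19-fold lower. Sort1 was higher in shPkm2 than in shPkm1 by 0.88 (SE 0.112, 0.64 to 1.12).

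The table lists 4 Sort1 transcripts, and the curated pair differs by exon 18 of the longer one (chr3:108355472-108355570, 99 bases, 33 codons, in frame). This exon is known as one that the RNA-binding protein TDP-43 keeps out of sortilin mRNA in brain, and it is shown because the 2 curated forms can be told apart only by reads that touch it or skip it, besides the outer ends of their untranslated regions.
Sort1, exon 18 (GENCODE transcript sequence, GRCm38, plus strand): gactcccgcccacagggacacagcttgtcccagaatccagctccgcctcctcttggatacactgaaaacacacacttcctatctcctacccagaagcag
The form with the exon, NM_001271599.1 (858 codons), took 17.1% and 22.3% of Sort1 counts in shScr, 28.5% and 16.2% in shPkm1, and 19.6% and 35% in shPkm2. The form without it, NM_019972.3 (825 codons), took 44.6% and 34.6%, then 6.76% and 18.1%, then 10.5% and 65.0%. Both predicted transcripts were listed at 0 in shPkm2 replicate 2 and held the rest elsewhere. The share of the form without the exon differed more between the 2 shPkm2 libraries than between any 2 of the other libraries, while the sum per gene differed little between replicates, and no isoform change is read from these shares.

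**Figure D1:**
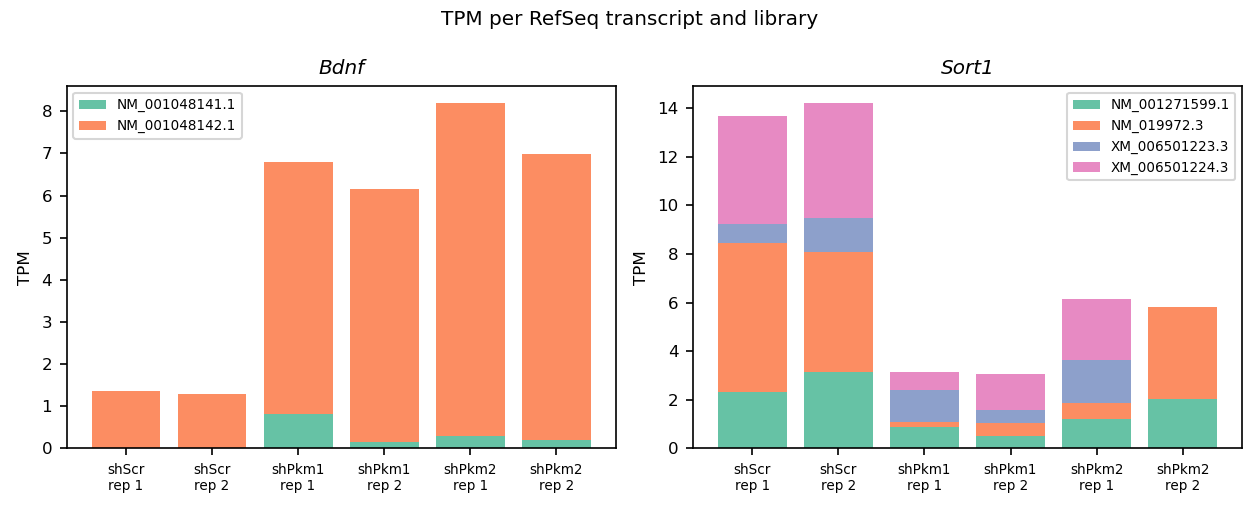
TPM of each RefSeq transcript of Bdnf (left) and Sort1 (right) with reads in any library, stacked for each of the 6 libraries. The summed bars of Sort1 are near 14 in shScr and near 3 in shPkm1, the colours within them differ between replicates, and the Bdnf bars are nearly all 1 transcript.

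Among the ligands, BDNF was higher in both hairpin groups. Bdnf (chr2:109674700-109727043, plus strand) had 66 and 62 counts in shScr, 273 and 276 in shPkm1, and 357 and 316 in shPkm2. Its level was 1.36 and 1.29 TPM in shScr, 6.79 and 6.16 TPM in shPkm1, and 8.19 and 6.98 TPM in shPkm2. All 4 hairpin libraries lay above both controls, and the shPkm2 values lay just above those of shPkm1 without overlap. The log2 fold change against shScr was 1.89 in shPkm1 (SE 0.160, 95% interval 1.55 to 2.24) and 2.06 in shPkm2 (SE 0.158, 1.71 to 2.40), levels 3.71-fold and 4.16-fold higher. The difference between the hairpin groups was 0.16 (SE 0.133), and its interval of -0.12 to 0.45 holds 0.

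Bdnf is transcribed from several first exons that splice to 1 coding exon, so its transcripts encode the same precursor. The table lists 4 of them, each of 249 codons, and 2 had counts. NM_001048142.1, whose first exon lies at chr2:109693563-109693909, held 66 and 62 counts in shScr, all of the gene's counts there. It held 240 and 270 counts in shPkm1, and 344 and 308 in shPkm2, a share of 88.0% to 97.6% of the counts in these 4 libraries. NM_001048141.1, with its first exon at chr2:109692436-109692774, was listed at 0 in both shScr libraries, at 32.82 and 6.49 counts in shPkm1, and at 13.12 and 8.44 in shPkm2. The pair shares the coding exon, so these are estimates from the few reads that reach the first exon, and those of shPkm1 differed widely between replicates.
The 250 bases before the start of NM_001048141.1 (chr2:109692186-109692435, plus strand, RefSeq, GRCm38.p6) are shown because counts for it were listed only in hairpin libraries, with an E-box match and a TGACG match in capitals.
Bdnf, bases before the start: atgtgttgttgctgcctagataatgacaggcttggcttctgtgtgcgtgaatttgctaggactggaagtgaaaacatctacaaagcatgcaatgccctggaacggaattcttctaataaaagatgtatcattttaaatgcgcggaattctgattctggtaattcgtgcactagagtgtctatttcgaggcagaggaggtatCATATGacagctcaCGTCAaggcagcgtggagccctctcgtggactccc
The stretch is 45.6% G and C. It holds 1 E-box match at position -49 and 1 match at -35 read as CGTCA, which is TGACG on the other strand. CREB, the factor that binds the cyclic AMP response element, is known to act on this gene, and a match of letters is a description of the window only. The start of the main transcript lies 536 bases from that of the nearest window in the table, so no sequence is shown for it.

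**Figure D2:**
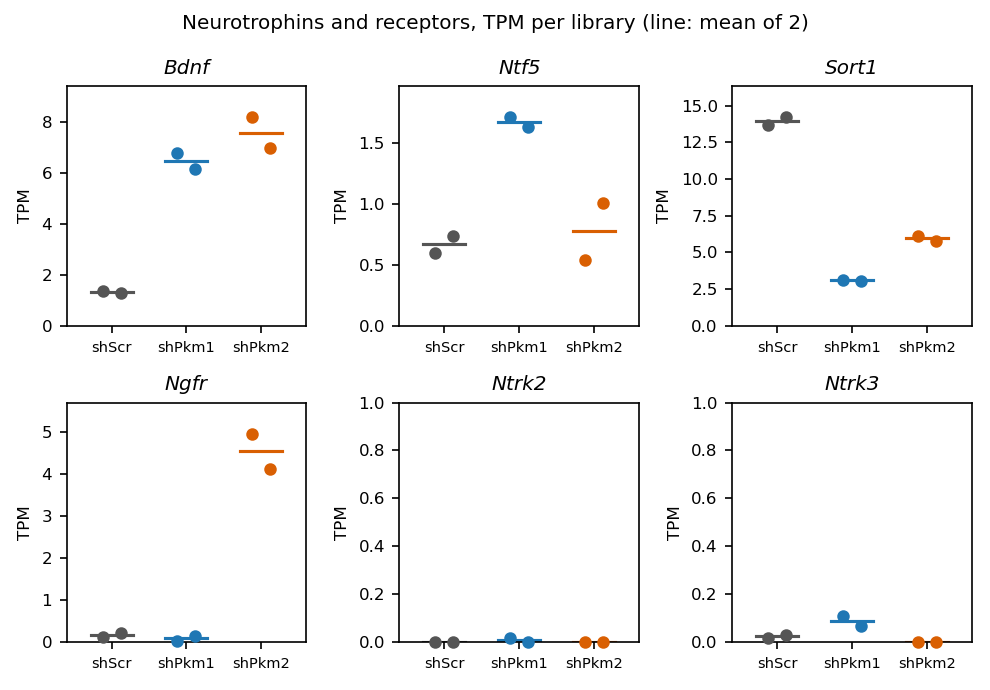
TPM (linear axis from 0, scale set per gene) of the ligands Bdnf and Ntf5 and the receptors Sort1, Ngfr, Ntrk2 and Ntrk3, with 1 point per library, and a line at the mean of 2 libraries. Ngfr is near 0 in shScr and shPkm1 and between 4.11 and 4.95 in shPkm2, and Ntrk2 and Ntrk3 stay at or under 0.11.

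Neurotrophin-4 had a different order. Ntf5 (chr7:45413695-45417179, plus strand) had 14 and 17 counts in shScr, 33 and 35 in shPkm1, and 12 and 22 in shPkm2. Its levels were 0.60 and 0.74 TPM in shScr, 1.71 and 1.63 in shPkm1, and 0.54 and 1.01 in shPkm2. Both shPkm1 libraries were above the 4 others, and the shPkm2 libraries lay on either side of the controls. The log2 fold change of shPkm1 against shScr was 0.93 (SE 0.360, 95% interval 0.15 to 1.70), and leaving out any 1 of these 4 libraries ended its call. Against shPkm1 the value in shPkm2 was -1.12 (SE 0.354, -1.89 to -0.36), a call lost without shPkm2 replicate 1 or either shPkm1 library. For shPkm2 against shScr it was -0.20 (SE 0.398, -1.06 to 0.66), and the direction turned with the scaling and with the library left out. In shPkm2 replicate 1, 3.79 of the 12 counts were assigned to a predicted transcript.

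**Figure D3:**
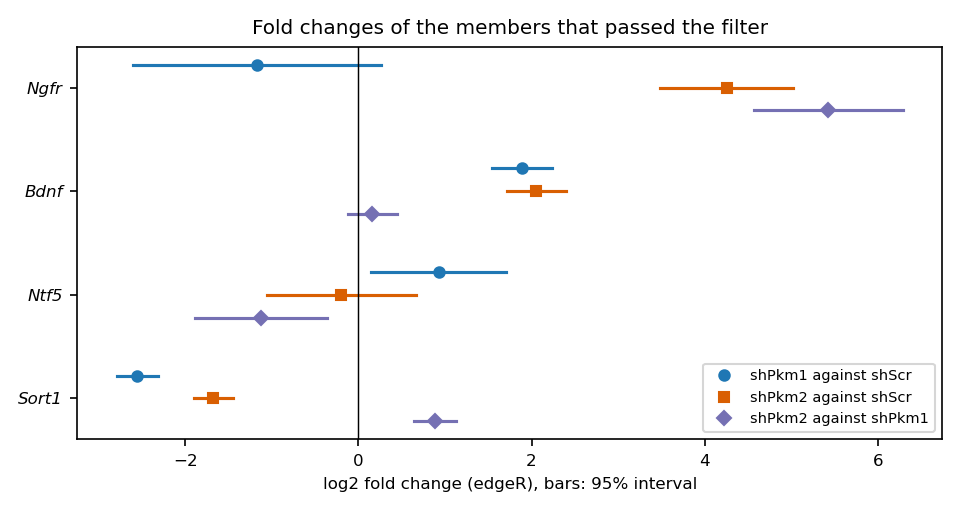
Log2 fold change (x axis) of the 4 members that passed the filter, with 95% intervals as bars and 1 symbol per comparison. Against shScr, Bdnf lies at 1.89 and 2.06 in the hairpin groups, Sort1 is below 0 against shScr, and Ngfr is high only in the 2 comparisons with shPkm2.

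Of the 6 genes with values, 4 passed the filter on low counts (Ngfr, Bdnf, Ntf5 and Sort1), and Ngfr did so only through the shPkm2 libraries. In shPkm1 against shScr 3 of these 4 were called at an adjusted p under 0.05 (Bdnf and Ntf5 higher, Sort1 lower), where 63.1% of all 12643 tested genes were called, 31.8% higher and 31.4% lower. In shPkm2 against shScr Ngfr and Bdnf were higher and Sort1 lower, where 68.0% of all genes were called, 33.9% higher and 34.2% lower. In shPkm2 against shPkm1 Ngfr and Sort1 were higher and Ntf5 lower, where 53.0% were called, 25.7% higher and 27.3% lower. The rule used these contrasts, and the counts are given only beside their background. The median log2 fold change of the 4 was -0.13, 0.93 and 0.52 in that order, where the median over all genes was within 0.01 of 0. With library totals in place of the composition factor, all genes shifted by 0.20, 0.33 and 0.13 on the log2 scale, and the higher share of calls was 65.8%, 69.3% and 61.3% in place of 50.3%, 49.8% and 48.4%. Bdnf, Sort1 and Ngfr kept their directions under both scalings. After the composition factor, the libraries of the groups compared did not overlap for 4 of the 4 members tested in shPkm1 against shScr, 3 of 4 in shPkm2 against shScr and 4 of 4 in shPkm2 against shPkm1, where 81.0%, 83.9% and 79.8% of all tested genes did not overlap.

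Genes around the receptors were taken from 6 lists of 125 genes, of which 112 were tested with edgeR's quasi-likelihood test and Benjamini-Hochberg adjustment over all genes. In shPkm1 against shScr 45 rose and 34 fell, which is 70.5% called where 63.1% of all tested genes were. In shPkm2 against shScr 44 rose and 37 fell, 72.3% called beside 68.0%. In shPkm2 against shPkm1 29 were higher and 35 lower, 57.1% called beside 53.0%. These shares lie near those of all genes. The share called per list ran from 37.5% to 82.4%, from 59.1% to 85.3% and from 41.2% to 72.7% in the same order, and the shares of all tested genes that were higher and lower, given above for the members, are the background of each list. Counts that moved by over 1.5 times under an alternative are given beside each list, and the range after a list's median is that with 1 library left out. Medians also shifted with the scaling, as those of all genes did.

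Of 8 tested sorting receptors and p75 co-receptors, 1 rose and 4 fell in shPkm2 against shScr (median -0.62, range -0.66 to -0.33, the upper end without shScr replicate 1). On the TPM scale, where 5 were tested, 2 rose and 1 fell, and with library totals 2 rose. Rtn4r, the Nogo receptor that pairs with p75 in neurons, had 35 and 36 counts in shScr, 268 and 265 in shPkm1, and 0 and 1 in shPkm2. It rose by 2.70 in shPkm1 against shScr (SE 0.208, adjusted p = 2.07e-07). In shPkm2 both libraries were at or under the floor of 3 counts per library. By group means after the composition factor, Rtn4r was thus at least 15.0-fold lower than in shScr and at least 97.4-fold lower than in shPkm1. By the lower library of shScr or shPkm1, the bounds for Rtn4r were 14.3-fold and 94.3-fold. Where Ngfr was present, this partner was thus at the floor. Tnfrsf19, Kidins220 and Sorcs1 are named after their values were seen. Tnfrsf19, a member of the tumour necrosis factor receptor family that can stand in for p75 in the Nogo receptor complex, had 51 and 41 counts in shScr, 2 and 3 in shPkm1, and 2 and 1 in shPkm2. Kidins220, a scaffold protein of Trk and p75 receptors, fell by 0.61 in shPkm2 (adjusted p = 8.82e-05), a call that was lost on the TPM scale in limma (-0.20 or -0.21, adjusted p = 0.161), with adjusted p from 3.11e-08 to 0.161 over the alternatives. Sorcs1, a sortilin relative, was the 1 that rose (1.51, adjusted p = 0.0322), with 1 and 22 counts in shScr and 38 and 44 in shPkm2, and the value was 0.64 without shScr replicate 1 and 4.80 without shScr replicate 2. The call was lost without shScr replicate 1, without either shPkm2 library, in DESeq2 and with only the groups compared, and a minimum mean of 50 counts and the TPM scale left the gene untested (adjusted p from 4.78e-07 to 0.142 over the alternatives). Rtn4, the ligand gene of the Nogo receptor, fell by 0.63 in shPkm2 against shScr (adjusted p = 0.000249), a call that was lost on the TPM scale in limma (-0.02), with adjusted p from 1.54e-08 to 0.888 over the alternatives.

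Of 16 tested adaptors and effectors of the p75 death domain, 10 rose and 1 fell in shPkm2 against shScr (median 0.31, range 0.27 to 0.33), where 33.9% of all tested genes rose and 34.2% fell. In shPkm1 against shScr 6 rose and 4 fell (median 0.07, range 0.02 to 0.12). The 10 came to 6 without shPkm2 replicate 1, the 6 came to 3 without shPkm1 replicate 2 and to 11 on log2(TPM + 1) and 10 on log2(TPM + 0.1), and the 4 came to 2 without shPkm1 replicate 1, with library totals and on the TPM scale. The 1 that fell came to 2 without shScr replicate 2. Ripk2, a kinase recruited to p75, had 243 and 265 counts in shScr, 371 and 411 in shPkm1, and 667 and 706 in shPkm2, and rose by 1.10 in shPkm2 (SE 0.111, adjusted p = 1.44e-06). Bcl2l11, which encodes the pro-apoptotic protein Bim, rose by 0.85 in shPkm2 (SE 0.148, adjusted p = 0.000195). Maged1, which encodes the p75 partner NRAGE, was the gene that fell, by 1.19 (SE 0.132, adjusted p = 3.52e-06), and it also fell in shPkm1, by 0.89 (adjusted p = 6.32e-05). Bex3, which encodes the p75-binding protein NADE, fell by 0.82 in shPkm1 (adjusted p = 4.11e-05) and was 1.12 higher in shPkm2 than in shPkm1 (adjusted p = 2.78e-06). The JNK genes Mapk9 and Mapk8 rose in shPkm1 by 0.62 and 0.53 (adjusted p = 0.000454 and 0.0018), and their counts in shPkm2 were also above those of shScr. Mapk9 had 510 and 486 counts in shScr, 926 and 845 in shPkm1, and 854 and 797 in shPkm2. Mapk8 had 361 and 341, then 596 and 574, then 589 and 536. Zfp110 was 0.43 lower in shPkm2 than in shPkm1 (adjusted p = 0.00687). The call of Zfp110 was lost without shPkm1 replicate 2, without shPkm2 replicate 2, with library totals and on the TPM scale, with adjusted p from 0.000454 to 0.0897 over the alternatives.

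Enzymes that cut the precursors or shed the receptors split by gene. Of 15 tested, 5 rose and 5 fell in shPkm1 against shScr (median 0.06, range -0.04 to 0.18), and 3 rose and 6 fell in shPkm2 (median -0.07, range -0.22 to 0.11). On the TPM scale, where 14 were tested, 8 rose and 2 fell in shPkm1 and 7 rose and 2 fell in shPkm2. With library totals the 5 falls in shPkm1 came to 3, and in shPkm2 6 rose and 3 fell. Without shScr replicate 2 the 3 rises in shPkm2 came to 5. Plat, the tissue plasminogen activator of the cascade that cleaves pro-BDNF, had 700 and 953 counts in shScr, 2136 and 2493 in shPkm1, and 1248 and 1175 in shPkm2, and rose by 1.29 in shPkm1 (SE 0.112, adjusted p = 6.22e-07). The shedding proteases rose in shPkm2 against shScr, Adam10 by 1.07 (SE 0.104, adjusted p = 1.07e-06) and Adam17, which cuts the p75 ectodomain, by 0.58 (adjusted p = 0.000259). Psen2, a catalytic subunit of the gamma-secretase that cuts the remaining stub, fell by 1.59 in shPkm2 (SE 0.132, adjusted p = 2.11e-07). Adam10 rose by 0.76 in shPkm1 (adjusted p = 3.47e-05), where Psen2 fell by 0.63 (adjusted p = 0.000716, from 2.32e-06 to 0.177 over the alternatives, the call being lost on the TPM scale). Mmp9 had 109 and 438 counts in shScr, 22 and 27 in shPkm1, and 120 and 144 in shPkm2, so the controls differed widely. It fell by 3.64 in shPkm1 (adjusted p = 3.35e-05), and the value was -2.44 without shScr replicate 2. Its fall of 1.35 in shPkm2 (adjusted p = 0.00795) was -0.14 without that library, and its call was lost there, without shPkm2 replicate 1, in DESeq2 and on the TPM scale (adjusted p from 3.87e-17 to 0.579 over the alternatives).

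The adaptors and kinases below the Trk receptors, which also serve other receptors, went both ways. Of 34 tested, 13 rose and 15 fell in shPkm1 against shScr, 14 rose and 15 fell in shPkm2, and 7 were higher and 7 lower in shPkm2 against shPkm1. The list's share called was 82.4%, 85.3% and 41.2% in that order, where 63.1%, 68.0% and 53.0% of all tested genes were called. The 13 came to 7 without shPkm1 replicate 1. The 7 higher came to between 1 and 4 without any 1 of the 4 hairpin libraries, and the 7 lower to 3 with library totals, 3 or 4 on the TPM scale, 3 without shPkm2 replicate 2 and 4 without shPkm1 replicate 2. Akt2, an Akt kinase of insulin-responsive tissue, had 12139 and 11841 counts in shScr, 4554 and 5128 in shPkm1, and 3230 and 3315 in shPkm2. It fell by 1.52 in shPkm1 (SE 0.110, adjusted p = 1.13e-07) and fell by 2.21 in shPkm2 (SE 0.113, adjusted p = 1.7e-09). Frs2, a docking protein of Trk and fibroblast growth factor receptors, rose by 1.32 in shPkm2 (SE 0.108, adjusted p = 1.87e-07), and Creb1, a transcription factor known to act on Bdnf, rose by 1.07 (SE 0.135, adjusted p = 1.14e-05). Hras fell by 1.55 in shPkm2 (adjusted p = 1.34e-07). In shPkm1 the adaptor gene Shc2 rose by 1.28 (adjusted p = 1.17e-05) and the phosphoinositide 3-kinase subunit gene Pik3r1 by 1.53 (adjusted p = 1.49e-06), while Rps6ka1 fell by 1.56 (adjusted p = 1.36e-05). Each of these genes moved the same way by count in both hairpin groups. In shScr, shPkm1 and shPkm2 in turn, Frs2 had 406 and 481, 914 and 834, and 1432 and 1357 counts. Creb1 had 253 and 246, 611 and 521, and 710 and 618. Hras had 3099 and 2809, 1330 and 1648, and 1248 and 1309. Shc2 had 275 and 461, 926 and 1117, and 839 and 751. Pik3r1 had 345 and 487, 1448 and 1305, and 1183 and 897. Rps6ka1 had 165 and 152, 57 and 67, and 83 and 80.

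Of 17 tested transcripts that growth factors induce, 10 rose and 4 fell in shPkm2 against shScr (median 0.58, range 0.50 to 0.68), and 6 rose and 5 fell in shPkm1 (median -0.08, range -0.16 to 0.05, and 0.12 with library totals). The list's share called was 82.4% in shPkm2 and 64.7% in shPkm1, where 68.0% and 63.1% of all tested genes were called. The 5 falls came to 3 without shPkm1 replicate 1 and with library totals and to 2 on the TPM scale. Egr2, an early growth response factor, had 72 and 78 counts in shScr, 177 and 180 in shPkm1, and 487 and 427 in shPkm2, and rose by 1.05 and 2.27 (adjusted p = 7.16e-05 and 1.72e-08). Fosl1, an AP-1 subunit gene, rose by 2.30 in shPkm2 (SE 0.104, adjusted p = 5.37e-10). It had 334 and 343 counts in shScr, 575 and 584 in shPkm1, and 2141 and 2065 in shPkm2. Dusp4, which encodes a phosphatase of MAP kinases, fell by 0.87 in shPkm1 (adjusted p = 0.000134) and was 2.16 higher in shPkm2 than in shPkm1 (adjusted p = 2.11e-08). The orphan receptor gene Nr4a1 fell by 1.23 in shPkm1 and fell by 2.61 in shPkm2 (adjusted p = 2.77e-05 and 3.8e-08), and Junb fell by 1.05 in shPkm2 (adjusted p = 5.18e-06).

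Of 22 tested genes of other neurotrophic systems, 13 rose and 4 fell in shPkm1 against shScr (median 0.87, range 0.79 to 0.97), and 6 rose and 7 fell in shPkm2 (median -0.01, range -0.21 to 0.18, or 0.32 with library totals). In shPkm2 against shPkm1 2 were higher and 14 lower (median -0.87, range -0.91 to -0.73). Of all tested genes 31.8% rose and 31.4% fell in shPkm1, 33.9% rose and 34.2% fell in shPkm2, and 25.7% were higher and 27.3% lower in shPkm2 against shPkm1. On the TPM scale the 4 falls in shPkm1 came to 2 and the 6 rises in shPkm2 to 10, with a minimum mean of 50 counts the 4 came to 2, and without shPkm1 replicate 2 the 2 came to 1. Ptn, which encodes the heparin-binding factor pleiotrophin, had 55 and 46 counts in shScr, 1642 and 1607 in shPkm1, and 86 and 99 in shPkm2, and rose by 4.80 in shPkm1 (SE 0.150, adjusted p = 5.63e-11). Gfra2, the neurturin receptor subunit, rose by 3.27 in shPkm1 (SE 0.166, adjusted p = 4.69e-09) and fell by 2.13 in shPkm2 (SE 0.261, adjusted p = 8.66e-06). Hgf, the activating factor of satellite cells, and its receptor gene Met rose in shPkm2 by 2.87 and 1.89 (adjusted p = 1.1e-08 and 2.83e-08). Both were also higher by count in shPkm1 than in shScr. Hgf had 47 and 42 counts in shScr, 265 and 226 in shPkm1, and 419 and 402 in shPkm2. Met had 218 and 258, then 494 and 422, then 1193 and 1037. Erbb3, a neuregulin receptor, had 982 and 871 counts in shScr, 262 and 237 in shPkm1, and 24 and 22 in shPkm2, and fell by 2.10 in shPkm1 and fell by 5.67 in shPkm2 (adjusted p = 4.44e-08 and 3.53e-11). Erbb2 fell by 0.99 in shPkm1 (adjusted p = 9.46e-06), and its counts were lower in both hairpin groups. They were 1639 and 1526 in shScr, 828 and 1025 in shPkm1, and 1075 and 1012 in shPkm2.

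**Figure D4:**
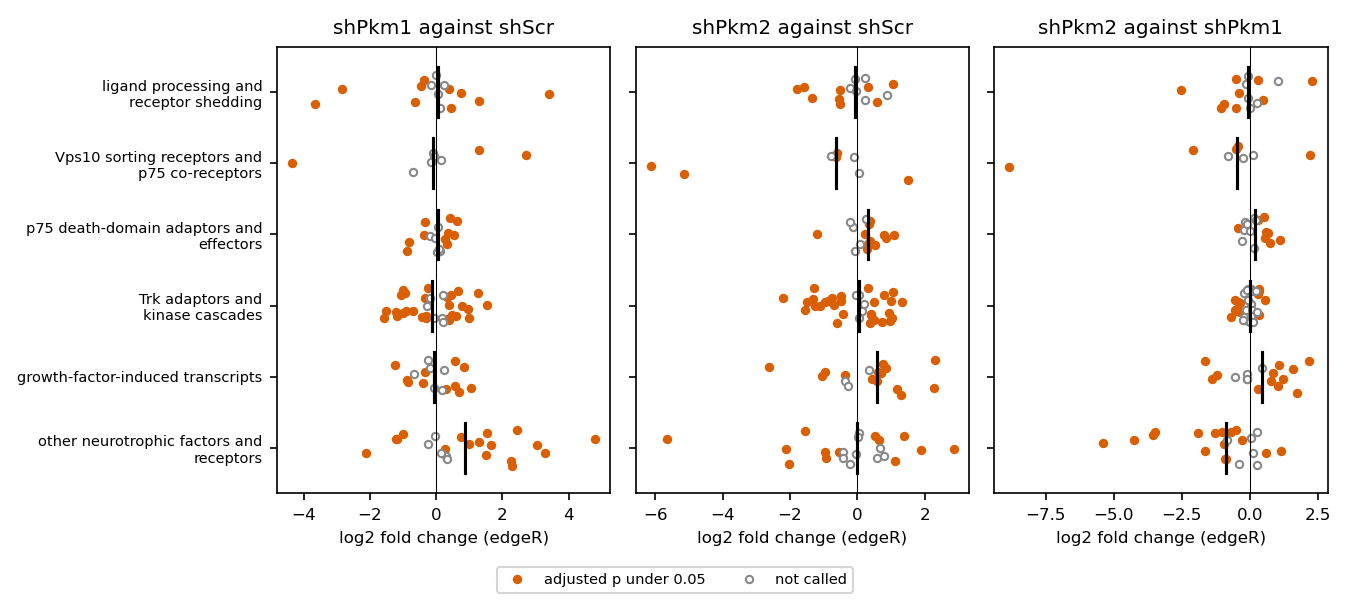
Log2 fold change (x axis) of each tested gene of the 6 lists around the receptors (y axis, points spread for legibility) in the 3 comparisons, with a vertical bar at the list's median, filled points for an adjusted p under 0.05 and open points for the rest. Medians run from -0.87 to 0.87, both in the list of other neurotrophic factors.

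Markers of cell types that carry p75 were read in the same libraries. Of 8 neuron markers, 5 were tested, and in shPkm2 against shScr 4 rose and 0 fell by edgeR's quasi-likelihood test with Benjamini-Hochberg adjustment, where 33.9% of all tested genes rose. In shPkm1 against shScr 1 rose and 3 fell, where 31.8% of all tested genes rose and 31.4% fell. The list's summed level was 66.2 and 89.0 TPM in shScr, 64.6 and 68.4 TPM in shPkm1, and 547 and 554 TPM in shPkm2, so the sum was highest where Ngfr was. The largest part of this sum was Stmn2, a tubulin-binding protein gene, at 42.76 and 42.32 TPM in shScr, 40.09 and 42.07 in shPkm1, and 434 and 452 in shPkm2. Without Stmn2 the sum was 23.4 and 46.7 TPM, then 24.5 and 26.4, then 113 and 102, also highest in shPkm2. The neuronal synaptic gene Snap25 was listed at 0 in all 6 libraries, and Rbfox3 (NeuN) and Elavl4 each had at most 1 count in any library. The part of other cell types in the level of Ngfr was not tested.

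Of 8 Schwann cell and neural crest markers, Sox10 was listed at 0 in all 6 libraries, and only Mbp and Erbb3 were tested. The list's summed level was 21.3 and 19.0 TPM in shScr, 8.58 and 6.96 in shPkm1, and 2.91 and 3.22 in shPkm2. Erbb3 made up most of it in shScr and shPkm1, but only 0.55 and 0.48 TPM of it in shPkm2. Without Erbb3 the sum went the other way, from 1.02 and 0.95 TPM in shScr to 2.08 and 1.69 in shPkm1 and 2.36 and 2.74 in shPkm2. Mbp, the gene of a myelin protein, rose in shPkm2 by 1.42 (adjusted p = 0.00152), from 15 and 17 to 45 and 63 counts.

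The other marker lists split by gene. Of all tested genes 31.8% rose and 31.4% fell in shPkm1 against shScr, and 33.9% rose and 34.2% fell in shPkm2. Of 8 tested myoblast and satellite cell markers, 3 rose and 5 fell in shPkm2 against shScr (median -1.78). Pax7 fell by 3.08, Myod1 fell by 2.22, Itga7 fell by 2.18, Des fell by 2.13 and Cdh15 fell by 1.43, while Myf5 rose by 1.74, Vcam1 by 1.67 and Sdc4 by 0.23, with adjusted p of at most 0.0401. Their summed level was 3344 and 3638 TPM in shScr, 2962 and 3127 in shPkm1, and 1397 and 1299 in shPkm2, and Des, which encodes desmin, made up more than any other gene of it. Of 6 tested pericyte and smooth muscle markers, 4 rose and 2 fell in shPkm1 against shScr (median 1.43), and 2 rose and 2 fell in shPkm2 (median 0.09). Nearly all of their sum was the actin gene Acta2, at 9338 and 6999 TPM, then 4978 and 5219, then 2447 and 2469. Without it the sum was 174 and 178 TPM in shScr, 643 and 635 in shPkm1, and 173 and 164 in shPkm2. In shPkm1 Pdgfrb rose by 1.99, Cspg4 by 1.80, Cnn1 by 1.64 and Tagln by 1.22, while Acta2 fell by 1.09 and Mcam fell by 0.95, with adjusted p of at most 0.000395. In shPkm2 Acta2 fell by 2.24 and Tagln fell by 1.14, while Mcam rose by 0.69 and Cnn1 by 0.50, with adjusted p of at most 0.0381. Of 6 tested fibroblast and mesenchymal markers, 5 rose and 1 fell in shPkm1 (median 1.26), and 2 rose and 4 fell in shPkm2 (median -0.73). In shPkm2 Col1a1 fell by 3.41, Dcn fell by 1.11, Ly6a fell by 0.97 and Col3a1 fell by 0.49, while Pdgfra rose by 2.46 and Tcf4 by 0.37, with adjusted p of at most 0.00834. Their sum stood at 1394 and 1670 TPM in shScr, 6002 and 5777 in shPkm1, and 1154 and 1068 in shPkm2, mostly from the collagen genes Col1a1 and Col3a1 in shPkm1. Sort1 had its highest level in shScr, where the myotube sum was highest, and its lowest in shPkm1, where the myotube sum lay between the others.

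**Figure D5:**
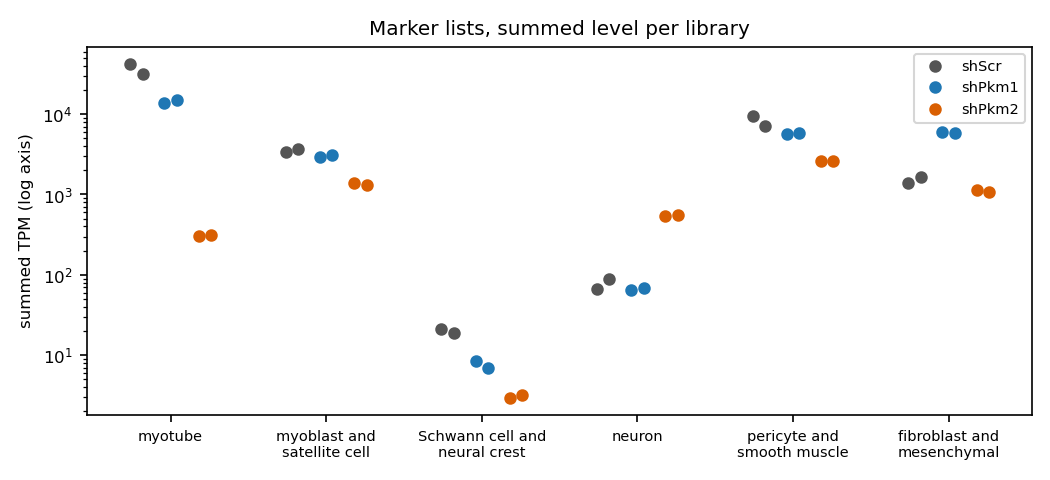
Summed TPM (log axis) of 6 lists of cell type markers, with 1 point per library, coloured by group. The myotube sum falls from 42391 and 31575 in shScr to 304 and 316 in shPkm2, and the neuron sum is higher in shPkm2 than in the other groups.

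The genes nearest in pattern to each tested member were ranked by the root mean square distance of centred log2 CPM over the 6 libraries, as a description. For Ngfr they were Prl2c3, Dlx3 and Car8, at distances of 0.526, 0.569 and 0.579. Dlx3, a homeobox gene, had 37 and 60 counts in shScr, 43 and 41 in shPkm1, and 881 and 814 in shPkm2. For Bdnf they were Fam131b, Septin6 and Tnfaip8 at 0.107 to 0.114, and those for Sort1 included Rnf213 at 0.184 and H2aw at 0.215. For Ntf5 they were Pcdhga6, Vkorc1 and Ch25h at 0.0866 to 0.159. Prl2c3 and Pcdhga6 belong to families of genes with shared sequence, whose counts the counting could split. The distances for Ngfr were wider than for the others, and its counts in shScr and shPkm1 were 9 or fewer.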

How the data were processed

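RNA was measured in 6 libraries of C2C12 cells, 2 per group, grouped by sample title. Per the submitters' processing notes, the authors used HISAT, StringTie, Bowtie, RSEM and DESeq2 with mm10; versions, roles, strand and filters are not given in the sources used here. Per the file headers, the deposited table gives an estimated count, an FPKM and a TPM value for each of 57920 RefSeq transcripts. Deposited TPM values sum to between 999999 and 1000000 per library. FPKM values, as deposited by the authors, account for transcript length and depth and served only as an alternative unit.

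Counts, TPM and FPKM were summed per NCBI gene (17558 genes, 17445 with a symbol; the 113 others held at most 0.148% of counts), and counts were rounded for testing. edgeR 4.0.16 (R 4.3.3) with filterByExpr (minimum 10, total 15), TMM factors (0.856 to 1.117) and a group-means design took in the whole set of 6 libraries. This left 12643 genes for the quasi-likelihood F-test (two-sided, Benjamini-Hochberg over all genes, threshold 0.05). Fold changes come from this fit. Intervals of count ratios are exact (Clopper-Pearson, 95%). The floor was 3 counts per library. The code was tested on simulated data.

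Members and gene lists were chosen with earlier results of these data known. Named genes were the members and Pkm, and per list and comparison up to 2 called genes with the largest values in each direction, with a mean of at least 50 counts and groups that do not overlap. For each tested member, the 3 genes nearest in pattern were added. Some genes that the rule names are not reported here. Other co-receptor and marker genes were named, and marker sums without their most abundant gene added, after values were seen. Only predicted non-coding genes overlapped Ntrk2 and Ntrk3. Alternatives were DESeq2 1.42.0, limma 3.58.1 on log2(TPM + 1) and log2(TPM + 0.1), other scalings and filters, fits of the groups compared only, a block on replicate number, and leaving out each library. Promoter windows were available for Ngfr, Bdnf and Ntrk2.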

Additional observations from a re-analysis of the deposited data

How the results depend on the processing

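The number of genes called and the number of genes called in the pathway lists stayed within 1.5 times their reported values in every alternative and comparison. Leaving out 1 library gave 6047 to 8285 genes called in shPkm1 against shScr and 7231 to 8793 in shPkm2 against shScr. The direction of Ntf5 in shPkm2 against shScr turned to 0.12 with library totals, 0.19 without shPkm2 replicate 1, 0.0765 on log2(TPM + 1) and 0.14 on log2(TPM + 0.1), and the cause was not tested. Leaving out 1 library gave -0.70 to 0.19. The Ntf5 calls in the other comparisons were also lost under DESeq2. Of 819 alternative values of the named pathway genes, 801 kept their call, 18 lost it (Psen2, Mmp9, Rtn4, Zfp110, Crkl and Hgf) and 0 changed direction. This tally covers the pathway genes picked by the rule and leaves out Tnfrsf19, Kidins220 and Sorcs1, whose lost calls are given with their values. Genes with few counts, Ngfr in shScr and shPkm1 among them, are limited by depth.

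The deviations of same-numbered libraries from their group means had correlations of -0.0256, 0.0418 and 0.0527 across genes, so no large shared shift was visible. With 2 libraries per group, this cannot tell whether same-numbered libraries were cultured or prepared together. With the replicate number as a block, 7922, 8566 and 6682 genes were called in place of 7984, 8602 and 6703, and no call of a named gene changed.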
